A study of Homo sapiens with 12 samples.

Results

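The BCL2 family decides whether the outer membrane of the mitochondrion stays intact. Anti-apoptotic members such as MCL1, BCL-xL (encoded by *BCL2L1*) and BCL2 hold the effectors BAX and BAK in check. BH3-only proteins such as PUMA (*BBC3*), NOXA (*PMAIP1*), BIM (*BCL2L11*), BMF and BIK bind the anti-apoptotic members, and some of them also activate the effectors, after which cytochrome c leaves the mitochondrion and caspases are activated. Several of these genes are under transcriptional control during cell stress, and the balance of NOXA against MCL1 and of BIM and PUMA against BCL-xL is a common readout of stress signalling in tumor cells.

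The 10 genes described here were chosen by symbol among the 43236 symbols of the count data, with earlier results of these data known. They are 5 BH3-only genes (*BBC3*, *PMAIP1*, *BCL2L11*, *BMF* and *BIK*), 2 effectors (*BAX* and *BAK1*) and 3 anti-apoptotic genes (*MCL1*, *BCL2L1* and *BCL2*). All 10 had enough counts to be tested, among 15979 tested genes. They were measured in MNNG/HOS (HOS-MNNG in the labels), a human osteosarcoma cell line transformed with a chemical carcinogen, so every value comes from 1 line. Cells received DMSO, the solvent, for 6 h or 24 h (the CT/DMSO groups), or 300 nM NXP800, an oral small molecule studied as an activator of the stress kinase GCN2, for 6 h or 24 h. Each of these 4 groups has 3 mRNA libraries, and nothing in the labels says whether the 3 came from separate cultures, so p-values measure the spread between these libraries, which may be technical.

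Depth was close to even, with 30810614 to 31947656 gene counts per library. The time points differed in other ways, since 6.66 to 8.14% of read pairs fell on no annotated gene at 6 h against 2.73 to 3.67% at 24 h. Time of treatment and library set therefore cannot be told apart, and each NXP800 group was compared with DMSO of its own time. Of 9 markers of mesenchymal and bone tumor cells, 6 reached at least 1 CPM (counts scaled to a fixed library size after TMM scaling) in every library, with *VIM* among them, while *COL1A2* and *ALPL* were near 0. Of 6 epithelial markers 3 did (*EPCAM*, *KRT8* and *KRT18*), and *CDH1* was near 0. The 5 leukocyte markers summed to at most 3.40 CPM and the 4 endothelial ones to at most 2.05 CPM, with lower sums under NXP800 (leukocyte 0.184 to 0.338 against 1.62 to 2.93 CPM at 6 h). The mesenchymal sum, 73.9 to 87.3% of it *VIM*, was also lower under NXP800, at 4778 to 4950 against 5578 to 5846 CPM at 6 h and at 4032 to 4875 against 6571 to 7261 CPM at 24 h, but *RUNX2* of this list rose at both times (log2 fold change 0.71, adjusted p = 4.08e-05, and 0.36, adjusted p = 0.00879) and *FN1* rose at 6 h (0.50, adjusted p = 0.00335). The epithelial sum overlapped at 6 h (1173 to 1333 against 1262 to 1520 CPM) and was lower under NXP800 at 24 h (1083 to 1360 against 1735 to 1783 CPM). *EPCAM* of this list went the other way and rose at 24 h (log2 fold change 0.81, adjusted p = 4.85e-06). The part of these markers in the values below was not tested. In bulk RNA, fewer cells of a kind and less RNA per cell cannot be told apart.

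For the 3 genes that carry the largest responses to NXP800 apart from *BIK*, sequence before an annotated start from RefSeq (GRCh38.p14) is shown 5′ to 3′ in the direction of transcription, so that the windows can be set beside the RNA values. Capitals mark the only matches to these motifs, which were searched on both strands: TGATGNAAN (the core of a C/EBP-ATF response element), TGACG (the core of a cyclic AMP response element), TGANTCA (AP-1) and CACGTG (E-box). They were chosen with the windows in view. CCAAT was searched too and is left in lower case. The *PMAIP1* stretch is the whole window of 250 bases before the start, on the plus strand at chr18:59899746-59899995. The *BMF* stretch of 237 bases lies on the minus strand at chr15:40108893-40109129 and leaves out the bases that belong to an annotated exon. For *BBC3* only 27 bases around the AP-1 match are shown, on the minus strand at chr19:47232764-47232790.
PMAIP1: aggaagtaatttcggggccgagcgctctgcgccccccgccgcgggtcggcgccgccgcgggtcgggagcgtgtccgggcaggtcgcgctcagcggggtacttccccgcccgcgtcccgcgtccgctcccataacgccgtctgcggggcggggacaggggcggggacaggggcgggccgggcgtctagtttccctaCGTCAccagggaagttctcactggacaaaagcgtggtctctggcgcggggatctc
BMF: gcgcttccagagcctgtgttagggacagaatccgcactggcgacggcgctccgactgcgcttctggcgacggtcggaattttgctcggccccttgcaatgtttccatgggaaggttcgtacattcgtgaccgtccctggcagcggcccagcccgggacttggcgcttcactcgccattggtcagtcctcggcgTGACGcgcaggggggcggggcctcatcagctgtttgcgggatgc
BBC3: cactggaaggTGAGTCActctggtgag

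The TGACG core, or its reverse complement, lay 55 to 51 bases before the start of *PMAIP1* and 57 to 53 bases before that of *BMF*, and 21.2% of 35116 promoter windows hold it. It also lay 225 to 221 bases before the start of *BCL2*, which fell at 6 h, and 201 to 197 bases before the more upstream of the *BCL2L1* starts, so it was not particular to members that rose. The AP-1 letters lay 113 to 107 bases before the *BBC3* start of the table, which is 1468 bases upstream of the start of the MANE Select transcript, the transcript agreed on by RefSeq and Ensembl. The RefSeq gene reaches to 47232860, so these letters lie inside the annotated gene, downstream of its outermost start. They occur in 6.6% of the windows. The full *BBC3* window also holds 1 E-box. Among the members that rose little or not at all, the *BAX* window (chr19:48954625-48954874, plus strand) holds 4 E-boxes and 1 TGACG core, against 6.3% of all windows with an E-box. No member window shown or named here holds TGATGNAAN, which occurs in 3.1%. *MCL1* and *BIK* have no entry in the table. These matches describe letters in a window and say nothing of binding.

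At 6 h NXP800 changed 6 of the 10 members. *BBC3*, *PMAIP1*, *BIK* and *MCL1* rose, *BAX* and *BCL2* fell, and *BCL2L11*, *BMF*, *BAK1* and *BCL2L1* did not pass the threshold. At this time 52.8% of all tested genes passed it in either direction, 25.0% as higher and 27.8% as lower, so a share of 6 in 10 called members is near the background. At 24 h 5 members rose (*BBC3*, *PMAIP1*, *BMF*, *BIK* and *MCL1*) and 0 fell, against a background of 56.0% called, 27.5% higher and 28.6% lower. With the replicate number as a block, *BCL2L1* was lower at 24 h as well, so that 1 member fell. The block also raised the 24 h calls over all 15979 tested genes, to 5117 higher and 5294 lower from 4387 and 4566. At 6 h it raised them to 4622 higher and 5331 lower from 4000 and 4435. Calls used a Benjamini-Hochberg adjusted p (over all tested genes) of less than 0.05, and each p comes from the edgeR quasi-likelihood model of the 4 groups.

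**Figure D1:**
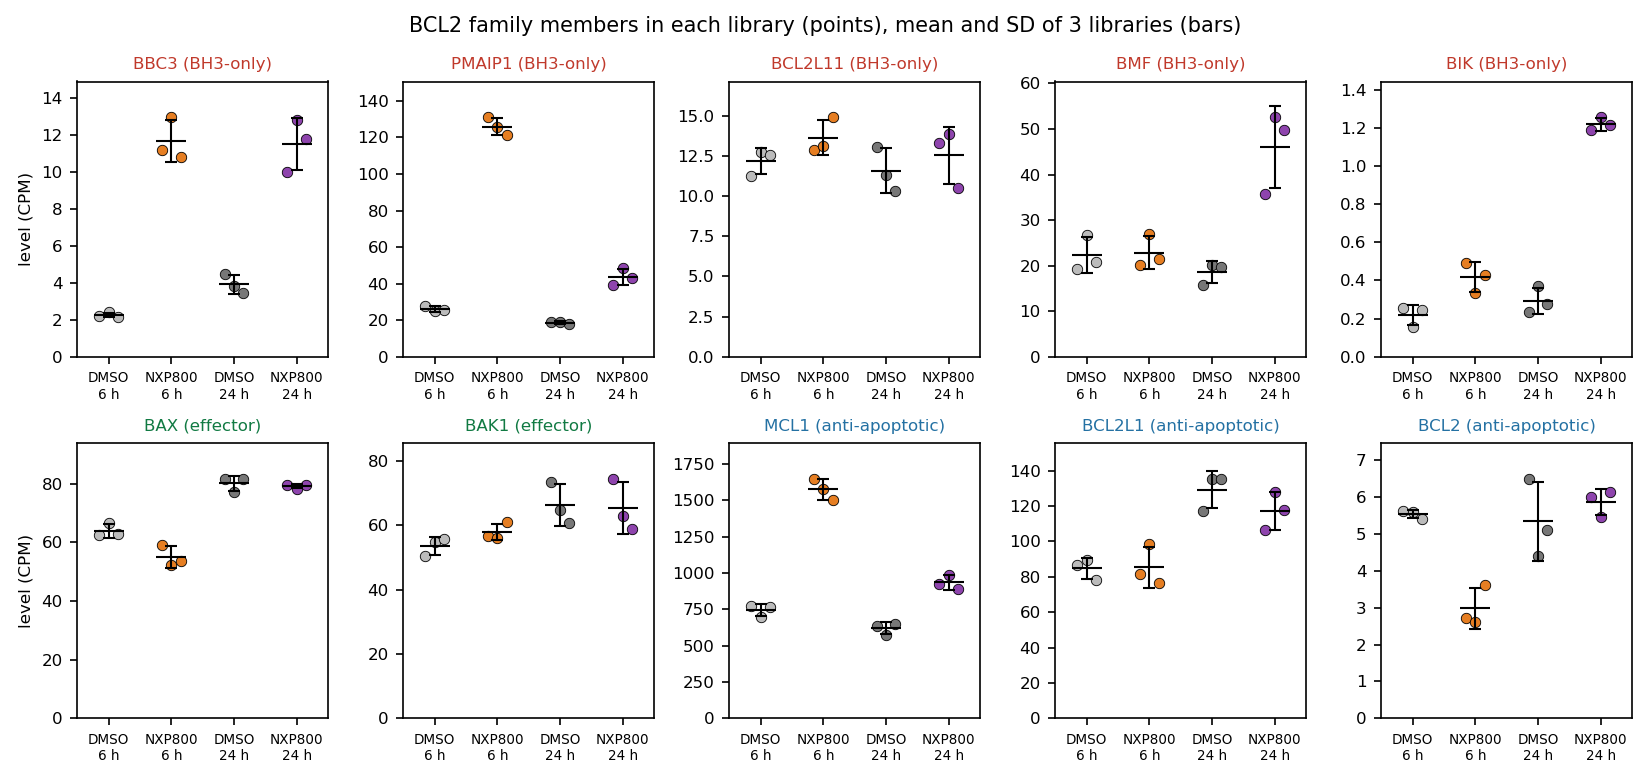
Levels of the 10 members in CPM on linear axes that start at 0, with 1 point per library, the mean as a horizontal bar and the SD of 3 libraries as error bars. The NXP800 points of BBC3, PMAIP1 and MCL1 lie above the DMSO points of the same time at both times, those of BMF only at 24 h, and those of BCL2 lie below DMSO only at 6 h.

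Among the BH3-only genes, *BBC3*, which encodes PUMA, the BH3-only protein that binds all the main anti-apoptotic members, had the largest estimate at 6 h. It had 70, 76 and 71 counts in the DMSO libraries and 364, 423 and 352 in the NXP800 libraries at 6 h. At 24 h it had 134, 114 and 101 counts in DMSO and 303, 408 and 369 in NXP800. All 3 treated libraries lay far above all 3 controls at both times, and the treated level was 11.6 ± 1.14 CPM at 6 h and 11.5 ± 1.41 CPM at 24 h (SD, n = 3 each). The log2 fold change was 2.37 at 6 h (SE 0.138, adjusted p = 1.56e-09), above that of 99.3% of tested genes, and 1.55 at 24 h (SE 0.131, adjusted p = 5.79e-08). The DMSO level was 1.74 times as high at 24 h as at 6 h, and no test was run between the times within DMSO.

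*PMAIP1* encodes NOXA, a BH3-only protein that binds mainly MCL1. Its counts went from 876, 788 and 840 in DMSO to 4262, 4106 and 3947 in NXP800 at 6 h. At 24 h they were 564, 573 and 516 in DMSO and 1197, 1543 and 1359 in NXP800. The groups were apart at both times, and the treated level was 126 ± 4.86 CPM at 6 h and 43.8 ± 4.44 CPM at 24 h (SD, n = 3 each), while the DMSO level was 0.715 times as high at 24 h. This is a 4.84-fold rise at 6 h (log2 fold change 2.27, SE 0.078, adjusted p = 6.42e-12) and a 2.35-fold rise at 24 h (1.23, SE 0.080, adjusted p = 2.92e-09).

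*BMF* encodes a BH3-only protein that is held at the cytoskeleton by dynein light chain in unstressed cells, and it was the member with a response at the later time alone. At 6 h it had 610, 848 and 683 counts in DMSO and 659, 882 and 698 in NXP800. The 6 h groups overlapped, with a log2 fold change of 0.04 (95% confidence interval -0.29 to 0.37, adjusted p = 0.846). At 24 h the counts were 472, 600 and 576 in DMSO and 1084, 1676 and 1561 in NXP800, with the lowest treated library well above the highest control. The log2 fold change was 1.31 (SE 0.154, adjusted p = 2.46e-06), above that of 95.6% of tested genes. In GENCODE 9.8% of the exonic bases overlap the antisense gene BMF-AS1, and whether the counting used strand is not given in the sources used here.

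*BIK*, a BH3-only gene whose protein sits mainly at the endoplasmic reticulum, had the fewest counts of the members. It had 8, 5 and 8 counts in DMSO and 16, 11 and 14 in NXP800 at 6 h, then 7, 11 and 8 in DMSO and 36, 40 and 38 in NXP800 at 24 h. The 24 h groups were far apart for so low a gene (log2 fold change 2.04, SE 0.275, adjusted p = 9.98e-06). The 6 h difference was 0.93 (SE 0.330, adjusted p = 0.0263) and rests on few counts. It did not pass without a filter on low counts (adjusted p = 0.0884), in DESeq2 (0.114), or without DMSO replicate 2 (0.119), NXP800 replicate 1 (0.107) or NXP800 replicate 3 (0.0624) of the 6 h groups. Because *BIK* reached the count filter mainly through its treated libraries, role summaries are given with and without it.

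*BCL2L11* encodes BIM, a strong activator of the effectors and a known target of FOXO3 and of the transcription factor CHOP. It had 354, 403 and 414 counts in DMSO and 419, 429 and 485 in NXP800 at 6 h, and 391, 337 and 301 against 402, 441 and 330 at 24 h. The 3 treated libraries lay just above the controls at 6 h and among them at 24 h. The log2 fold changes were 0.16 (95% confidence interval -0.09 to 0.41, adjusted p = 0.258) and 0.11 (-0.14 to 0.37, adjusted p = 0.431), so the upper bounds lie well under a doubling. In GENCODE 14.3% of its exonic bases overlap MIR4435-2HG, and the gene count does not separate the BIM isoforms.

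The effectors moved little. *BAX*, whose protein moves to the mitochondrion and forms pores there, had 1972, 2109 and 2064 counts in DMSO and 1926, 1704 and 1745 in NXP800 at 6 h. At 24 h it had 2440, 2298 and 2373 counts in DMSO and 2414, 2498 and 2496 in NXP800. In CPM the treated libraries lay below all controls at 6 h (55.0 ± 3.70 against 63.9 ± 2.25 CPM, SD, n = 3 each) and overlapped them at 24 h. Its 6 h log2 fold change was -0.22 (SE 0.061, adjusted p = 0.00697) and its 24 h value -0.02 (95% confidence interval -0.14 to 0.11, adjusted p = 0.835). In a fit with the replicate block and with corrections for GC content and length of the transcript, the 6 h value was -0.02 (adjusted p = 0.702) and the 24 h value was 0.13 (adjusted p = 0.0333), so the small fall at 6 h depends on that choice.

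*BAK1*, the effector that resides at the mitochondrion, had 1587, 1733 and 1832 counts in DMSO and 1849, 1829 and 1982 in NXP800 at 6 h. At 24 h the counts were 2196, 1922 and 1771 in DMSO against 2252, 2006 and 1843 in NXP800. The treated libraries lay just above the controls at 6 h in CPM and among them at 24 h. Its log2 fold changes were 0.11 (95% confidence interval -0.07 to 0.30, adjusted p = 0.302) and -0.02 (-0.21 to 0.16, adjusted p = 0.853). The offsets for GC content and length with the block gave 0.24 at 6 h (adjusted p = 0.000182).

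Of the anti-apoptotic genes, *MCL1*, whose short-lived protein is the main partner of NOXA, rose at both times. It had 24399, 22003 and 25127 counts in DMSO and 53593, 51551 and 48810 in NXP800 at 6 h. At 24 h it had 19034, 17000 and 18874 counts in DMSO and 27969, 31527 and 27897 in NXP800. Every treated library exceeded every control of its time, by 2.12-fold on average at 6 h (log2 fold change 1.08, SE 0.074, adjusted p = 8.76e-09) and by 1.51-fold at 24 h (0.59, SE 0.074, adjusted p = 4.3e-06). The counts do not tell the full-length MCL1 isoform from its short, pro-apoptotic splice form.

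*BCL2L1*, which encodes BCL-xL and by splicing also the pro-apoptotic BCL-xS, had 2737, 2840 and 2564 counts in DMSO and 2649, 3211 and 2486 in NXP800 at 6 h. At 24 h it had 3510, 4021 and 3942 counts in DMSO and 3222, 4074 and 3682 in NXP800. The groups overlapped at both times. The log2 fold changes were 0.01 (95% confidence interval -0.19 to 0.21, adjusted p = 0.937) and -0.14 (-0.34 to 0.06, adjusted p = 0.211). With the replicate block the 24 h value was also -0.14, now with an adjusted p of 0.0204. The DMSO level was 1.53 times as high at 24 h as at 6 h, more than the treated and control groups differed at either time. In GENCODE 36.7% of the exonic bases of *BCL2L1* overlap the antisense transcript ABALON.

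*BCL2*, the founding anti-apoptotic gene, was low in this line and fell only at 6 h. It had 177, 177 and 178 counts in DMSO and 89, 85 and 118 in NXP800 at 6 h, with no treated library near the controls. At 24 h the counts were 194, 131 and 149 in DMSO and 182, 174 and 192 in NXP800, and the groups overlapped. The log2 fold change was -0.89 at 6 h (SE 0.158, adjusted p = 0.000192), above that of 6.97% of tested genes, and 0.14 at 24 h (95% confidence interval -0.19 to 0.46, adjusted p = 0.467).

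**Figure D2:**
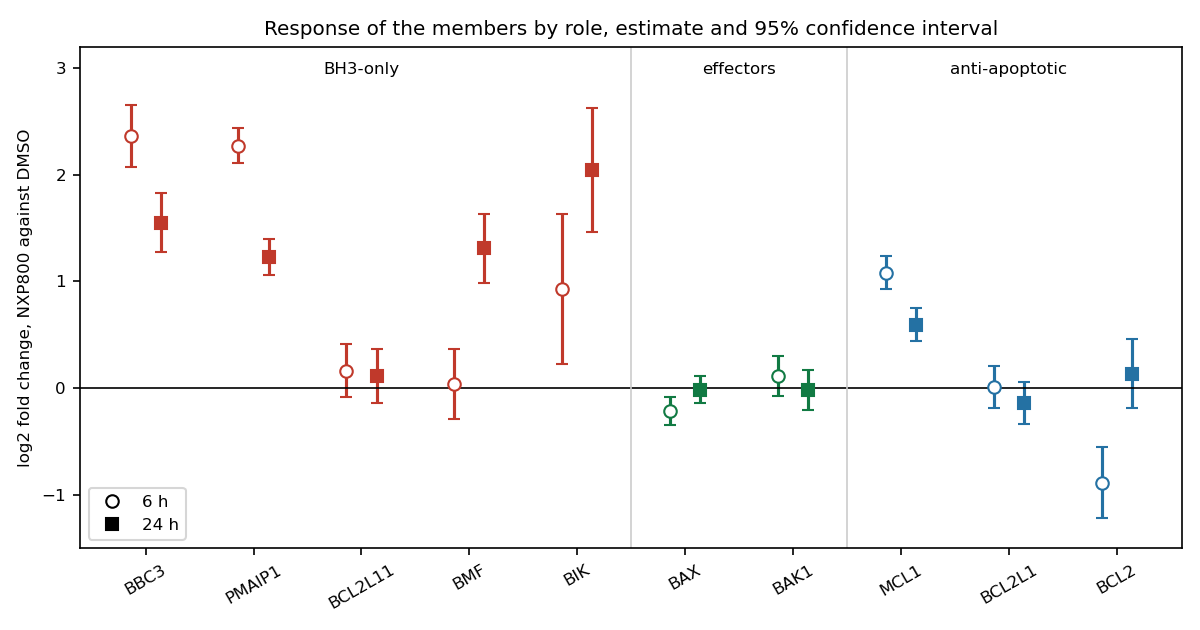
Log2 fold change of NXP800 against DMSO for each member, with 95% confidence intervals, open circles at 6 h and filled squares at 24 h, by role. The BH3-only genes range from 0.04 to 2.37 at 6 h and from 0.11 to 2.04 at 24 h, the effectors stay between -0.22 and 0.11, and among the anti-apoptotic genes only MCL1 has intervals above 0.

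Set side by side by role, 3 of the 5 listed BH3-only genes rose at 6 h and 4 at 24 h, where 25.0% and 27.5% of all tested genes rose, and 0 of these 5 fell. Without *BIK*, 2 of the remaining 4 listed BH3-only genes rose at 6 h and 3 at 24 h. With the BH3-only genes *BID*, *BAD* and *HRK*, described further on, 4 of 8 rose and 2 fell at 6 h, and 5 rose and 2 fell at 24 h. The risers of the 8 include *BIK* and *HRK* at both times. Both entered the test mainly through their treated libraries, so their rises add little to these counts. Among the 5 listed BH3-only genes, the median response on the log2 scale came to 0.93 for 6 h and 1.31 for 24 h. Leaving out *BIK* gave 1.22 and 1.27. The medians over all tested genes were -0.05 and -0.003. Of the 2 effectors, 1 fell at 6 h and 0 changed at 24 h (medians -0.05 and -0.02). Of the 3 anti-apoptotic genes, 1 rose and 1 fell at 6 h and 1 rose at 24 h (medians 0.01 and 0.14). Without *BIK*, 3 of the remaining 9 members rose and 2 fell at 6 h, and 4 rose and 0 fell at 24 h. These are descriptions of few genes, and no test was run between the roles.

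The test of the difference between the responses, 24 h minus 6 h, asks which members changed their response over time. It was negative for *BBC3* (-0.81, SE 0.191, adjusted p = 0.00535), *PMAIP1* (-1.04, SE 0.110, adjusted p = 6.58e-06) and *MCL1* (-0.49, SE 0.104, adjusted p = 0.00274), whose rises were larger at 6 h. It was positive for *BMF* (1.27, SE 0.218, adjusted p = 0.000522) and *BCL2* (1.02, SE 0.219, adjusted p = 0.00281). Thus 5 of 10 members passed, 2 as positive and 3 as negative, where 25.8% of tested genes passed, 12% as positive and 13.8% as negative. Over all genes the call counts were 1924 positive and 2205 negative, and scaling by library size alone made them 2463 and 1670. *BIK* had a difference of 1.11 (95% confidence interval 0.16 to 2.06, adjusted p = 0.0849). For *BAX* it was 0.20 (adjusted p = 0.0995), and 0.20 with an adjusted p of 0.0423 under the replicate block. *BCL2L11*, *BAK1* and *BCL2L1* had differences of -0.05, -0.13 and -0.15 with adjusted p of 0.867, 0.471 and 0.441.

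**Figure D3:**
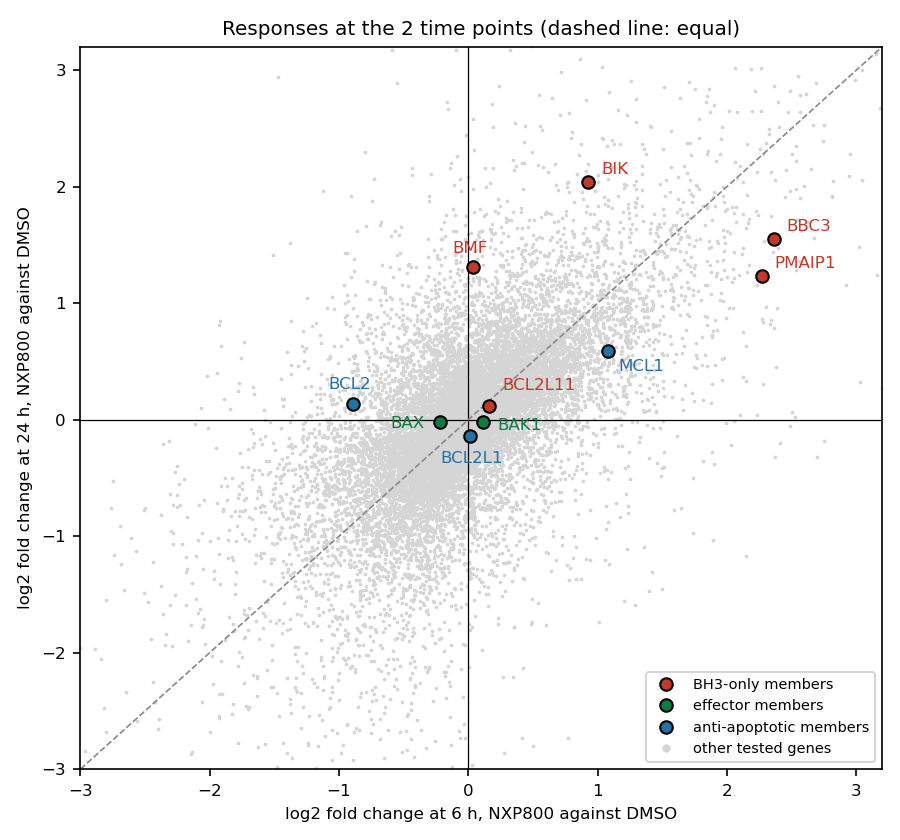
Log2 fold change at 6 h (x axis) against that at 24 h (y axis) for all tested genes in grey and the 10 members in color by role, with a dashed line where both are equal; 182 genes beyond the axes are not drawn. BBC3, PMAIP1 and MCL1 lie below the dashed line, and BMF, BIK and BCL2 above it.

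Levels of different genes were compared per length, as RPKM on the MANE Select transcript, which need not be the isoform these cells use. In DMSO at 6 h the order was *MCL1* (188 ± 10.95 RPKM), *BAX* (80.4 ± 2.84), *BCL2L1* (32.9 ± 2.36), *BAK1* (24.7 ± 1.32), *PMAIP1* (13.7 ± 0.800), *BMF* (4.75 ± 0.838), *BCL2L11* (2.39 ± 0.162), *BBC3* (1.22 ± 0.067), *BCL2* (0.804 ± 0.016) and *BIK* (0.229 ± 0.055), each SD over 3 libraries. No neighbours in that order overlapped between libraries. Under NXP800 at 6 h *PMAIP1*, at 66.3 ± 2.56 RPKM, reached the level of *BAX* at 69.1 ± 4.65 RPKM, and their libraries overlapped. *BBC3* then stood above *BMF* (6.31 ± 0.617 against 4.88 ± 0.768 RPKM), the reverse of their order in DMSO, and *BIK* and *BCL2* overlapped near 0.44 and 0.43 RPKM. At 24 h *BCL2L11* and *BBC3* overlapped in DMSO (2.27 ± 0.273 and 2.13 ± 0.278 RPKM), and no neighbours overlapped under NXP800, where *BMF* (9.82 ± 1.92 RPKM) was again above *BBC3* (6.24 ± 0.761 RPKM).

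Summed per-length levels show how the pools shifted. The 5 listed BH3-only genes summed to 22.3 ± 0.503 RPKM in DMSO and 80.6 ± 2.59 RPKM in NXP800 at 6 h, and to 18.5 ± 0.698 and 42.8 ± 4.96 RPKM at 24 h. The 3 anti-apoptotic genes summed to 222 ± 9.73 and 432 ± 20.2 RPKM at 6 h and to 208 ± 9.75 and 283 ± 15.6 RPKM at 24 h. Both pools were higher in all treated libraries, whereas the effector pool was 105 ± 3.53 and 95.8 ± 4.57 RPKM at 6 h and 131 ± 4.81 and 130 ± 4.10 RPKM at 24 h.

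Per 100 RPKM of anti-apoptotic transcript there were 9.73, 10.8 and 9.70 RPKM of transcript of the 5 listed BH3-only genes in the DMSO libraries and 18.4, 18.7 and 19.0 in the NXP800 libraries at 6 h. At 24 h the values were 8.92, 9.67 and 8.16 in DMSO and 13.7, 15.8 and 15.9 in NXP800. The 2 groups did not overlap at either time for these 5 genes, but the ratio depends on which BH3-only genes are counted. *BID* and *BAD* were as abundant as the larger members of the pool, at 14.9 ± 0.909 and 11.5 ± 0.745 RPKM in DMSO and 11.1 ± 1.02 and 7.91 ± 0.991 RPKM in NXP800 at 6 h, and at 13.9 ± 1.14 and 14.4 ± 1.14 against 8.59 ± 0.849 and 5.43 ± 0.608 RPKM at 24 h. With *BID*, *BAD* and *HRK* added, a choice made after seeing the data, the ratio was 20.8, 24.0 and 21.3 in DMSO and 23.1, 22.8 and 23.3 in NXP800 at 6 h, and 21.8, 25.2 and 20.8 in DMSO and 19.2, 20.2 and 21.2 in NXP800 at 24 h. The groups then overlapped at both times, and at 24 h the mean was lower under NXP800 (20.2 ± 1.02 against 22.6 ± 2.27, SD, n = 3 each). The higher ratio thus held for the 5 listed genes and not with *BID*, *BAD* and *HRK* added. The anti-apoptotic sum was left at its 3 listed genes, and no ratio was computed with *BCL2L2* or *BCL2L12* added to it. *MCL1* made up 84.8 ± 1.52% of the pool of 3 anti-apoptotic genes in DMSO and 92.2 ± 0.903% in NXP800 at 6 h, and 75.4 ± 2.23% and 83.6 ± 0.971% at 24 h. *PMAIP1* went from 61.5 ± 3.86% to 82.3 ± 1.44% of the pool of 5 BH3-only genes at 6 h but held 53.1 ± 0.501% and 53.9 ± 1.19% at 24 h, when *BMF* supplied 21.5 ± 2.94% and 22.8 ± 2.27%. Set against its partner, *PMAIP1* stood at 7.29 ± 0.291 RPKM per 100 RPKM of *MCL1* in DMSO and 16.6 ± 0.154 in NXP800 at 6 h, and at 6.29 ± 0.671 and 9.74 ± 0.724 at 24 h (SD, n = 3 each). These ratios concern transcripts, not proteins, and no test was run on them.

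**Figure D4:**
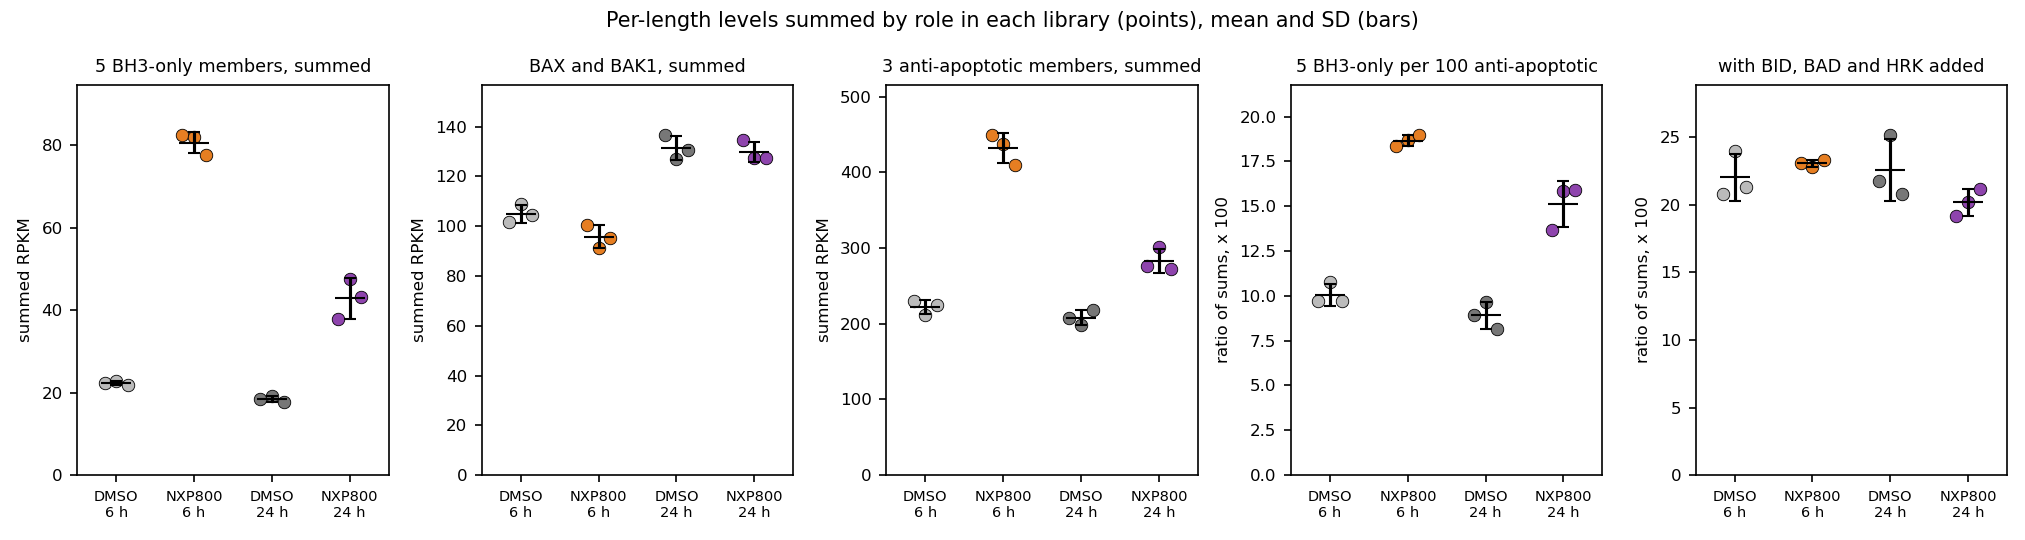
Summed RPKM of the 5 listed BH3-only, the effector and the anti-apoptotic genes, the ratio of the BH3-only to the anti-apoptotic sum times 100, and the same ratio with BID, BAD and HRK added, with 1 point per library, mean and SD, on linear axes from 0. The sums of the 5 BH3-only and of the anti-apoptotic genes and their ratio are higher in every NXP800 library than in any DMSO library of the same time, and the effector sums are not, while with BID, BAD and HRK added the ratios overlap at both times.

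Of 13 other genes of the family 10 were tested, and at each time 4 rose and 3 fell, beside 25.0% higher and 27.8% lower over all tested genes at 6 h and 27.5% and 28.6% at 24 h. The BH3-only genes *BID* and *BAD*, whose proteins are switched on by cleavage and by dephosphorylation, fell. The log2 fold change of *BID* was -0.43 (adjusted p = 0.001) in the 6 h comparison and -0.69 (adjusted p = 1.2e-05) in the 24 h comparison. *BAD* had -0.54 (adjusted p = 0.00101) and -1.41 (adjusted p = 6.64e-08), and its fall deepened by 0.87 (difference -0.87, adjusted p = 0.0013), while 33.8% of its exonic bases overlap GPR137 on the other strand. *HRK*, a BH3-only gene known from neurons, had 3, 13 and 2 counts in DMSO and 20, 16 and 20 in NXP800 at 6 h, then 1, 3 and 8 against 33, 44 and 71 at 24 h. It rose at both times (1.59, adjusted p = 0.0254, and 3.51, adjusted p = 3.63e-05), from a level so low that it entered the test through the treated libraries. Without it and the similarly low *BCL2L10*, 3 of the other 8 genes rose at 6 h and 2 at 24 h.

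Of the further anti-apoptotic genes, *BCL2L2* (BCL-w) rose by 0.45 (adjusted p = 0.000614) and 0.30 (adjusted p = 0.01) on the log2 scale, although 16.7% of its exonic bases are shared with the readthrough gene BCL2L2-PABPN1. *BCL2L10*, at 5 to 26 counts per library, had 0.85 (adjusted p = 0.111) and 1.09 (adjusted p = 0.0476). *BCL2L12* fell by 0.26 (adjusted p = 0.0291) and by 0.97 (adjusted p = 2.69e-07), with a difference of -0.72 (adjusted p = 0.000956). *BCL2L13*, a mitophagy receptor, rose by 0.44 (adjusted p = 3.5e-05) and 0.34 (adjusted p = 0.00035). The related mitophagy gene *BNIP3L* rose at 6 h (0.35, adjusted p = 0.00463) and had 0.20 at 24 h (adjusted p = 0.0793). *BOK*, a BAX-like gene, had 0.04 and 0.11 (adjusted p = 0.771 and 0.352), and *BNIP3* had -0.08 and 0.01 (adjusted p = 0.4 and 0.901). *BCL2A1*, *BCL2L14* and *BCL2L15* had at most 7 counts in any library and were not tested.

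Downstream of the mitochondrion, of 10 genes for the apoptosome, caspases and released proteins, 1 rose and 5 fell at 6 h, and 3 rose and 5 fell at 24 h, where 52.8% and 56.0% of all tested genes changed in either direction. *CASP6*, an executioner caspase, fell by 1.09 (adjusted p = 3.2e-05) and by 1.06 (adjusted p = 6.18e-05) on the log2 scale at 6 h and 24 h. *APAF1*, the scaffold of the apoptosome, fell by 0.52 (adjusted p = 0.000203) and by 0.88 (adjusted p = 1.11e-06), and *AIFM1*, a flavoprotein of the intermembrane space, fell by 0.45 (adjusted p = 1.21e-05) and by 0.48 (adjusted p = 4.51e-06). *CASP9*, the initiator caspase of the apoptosome, rose at 24 h (0.63, adjusted p = 0.00246). *DIABLO*, which antagonizes the inhibitors of apoptosis, rose by 0.20 (adjusted p = 0.0364) and 0.30 (adjusted p = 0.00349), with all of its exonic bases shared with other annotated genes.

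Of 6 inhibitors of apoptosis, which block caspases or their activation, 5 were tested, and 3 rose and 1 fell at 6 h, while 1 rose and 2 fell at 24 h (all tested genes 25.0% higher and 27.8% lower at 6 h, 27.5% and 28.6% at 24 h). *XIAP*, the direct caspase inhibitor, rose by 0.55 (adjusted p = 1.65e-05) and 0.61 (adjusted p = 5.9e-06). *BIRC2* rose at 6 h, by 1.03 (adjusted p = 6.97e-08), and had a 24 h value of 0.17 (adjusted p = 0.113). *BIRC3* turned from a rise of 1.65 (adjusted p = 2e-08) to a fall of 0.76 (log2 fold change -0.76, adjusted p = 0.00685), a difference of -2.40 (adjusted p = 5.39e-06). *BIRC5* (survivin), which also acts in cell division, fell by 0.43 (adjusted p = 0.000132) and by 1.62 (adjusted p = 1e-10).

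Of 12 transcription factors known to act on genes of the family, 11 were tested, and 8 rose and 2 fell at 6 h while 7 rose and 2 fell at 24 h, beside the same 25.0% and 27.8% at 6 h and 27.5% and 28.6% at 24 h. *DDIT3*, which encodes CHOP, rose by 3.05 (adjusted p = 2.38e-11) and 3.01 (adjusted p = 2.39e-11) on the log2 scale, *ATF3* by 3.71 (adjusted p = 1.17e-08) and 2.41 (adjusted p = 1.17e-06), and *CEBPB* by 2.51 (adjusted p = 3.04e-12) and 2.28 (adjusted p = 6.7e-12). *ATF4* rose by 0.66 (adjusted p = 1.63e-06) and 0.51 (adjusted p = 1.91e-05), and *JUN* by 1.19 (adjusted p = 1.47e-05) and 0.88 (adjusted p = 0.000256). *TP73* fell by 1.46 (adjusted p = 0.000128) and by 0.99 (adjusted p = 0.00168), and *E2F1* by 0.33 (adjusted p = 0.000694) and by 1.16 (adjusted p = 1.47e-09). Of the exonic bases of *DDIT3*, 35.9% overlap other genes.

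**Figure D5:**
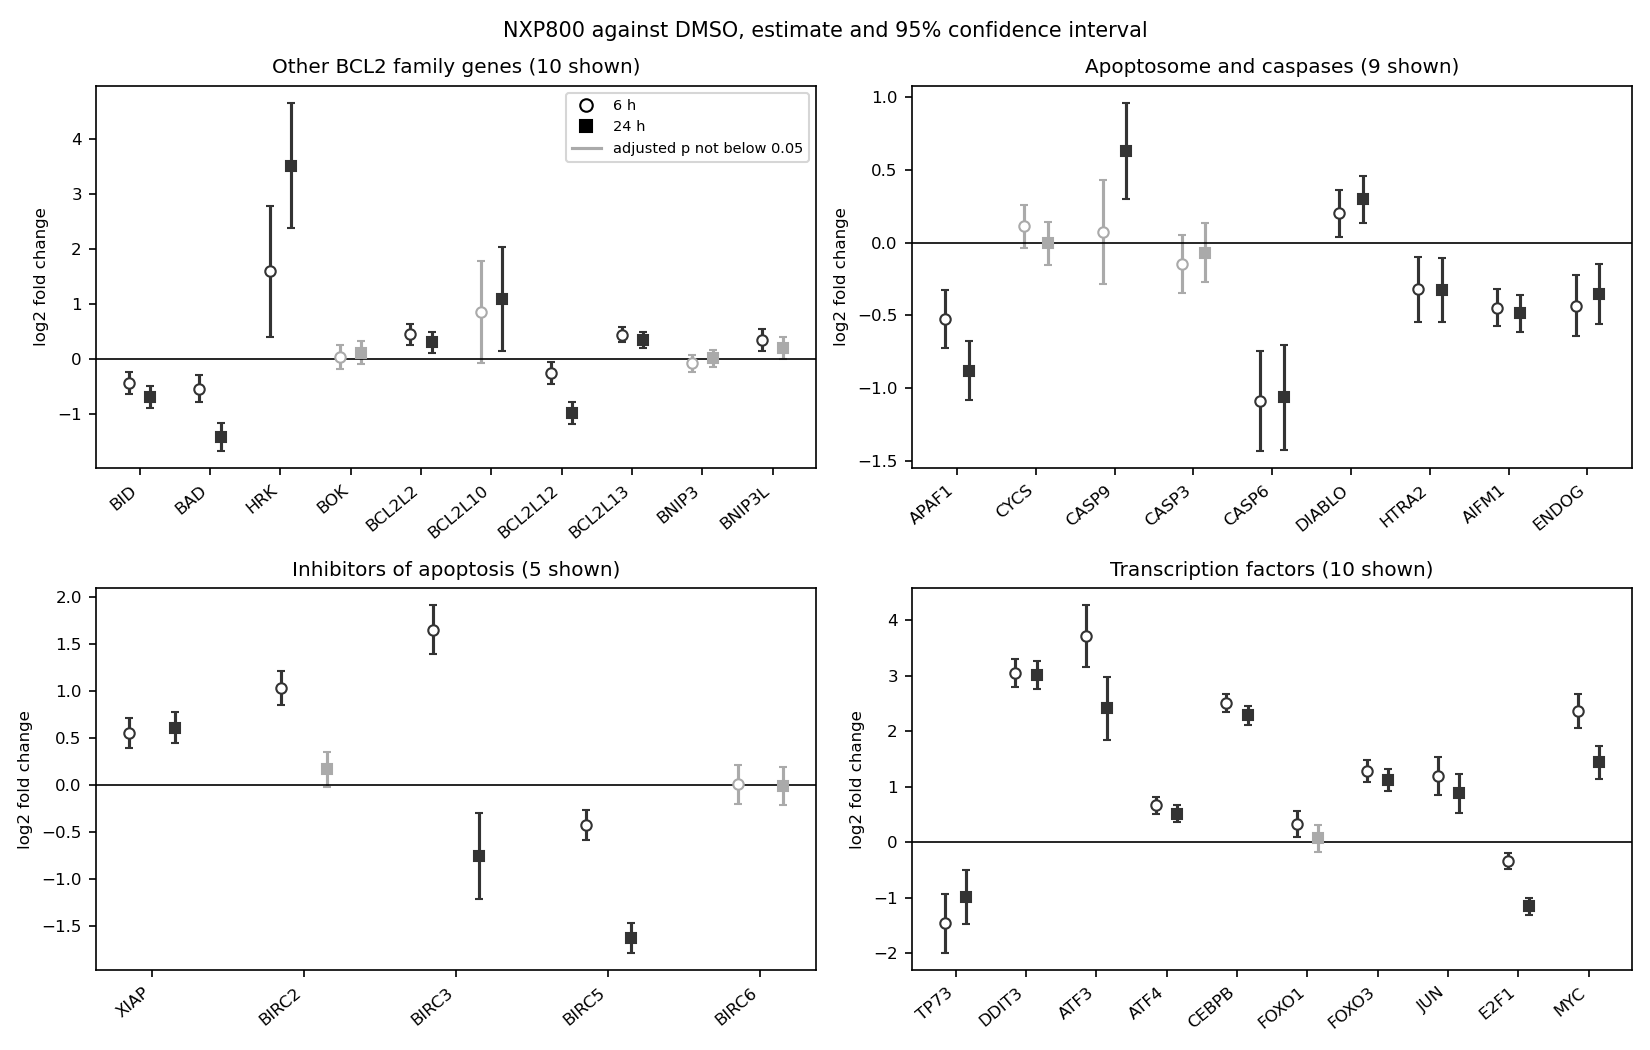
Log2 fold change of NXP800 against DMSO with 95% confidence intervals for the genes shown of 4 lists, open circles at 6 h and filled squares at 24 h, with estimates that did not pass the threshold in light grey. BID, BAD and BCL2L12 lie below 0 at both times, BIRC3 lies above 0 at 6 h and below 0 at 24 h, and DDIT3, ATF3 and CEBPB lie above 2 at both times.

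For the 4 members called in the same direction at both times, the genes with the most similar profile were sought among those whose log2 CPM averaged at least 1, by Pearson r of log2 CPM over the 12 libraries. For *BBC3* they were *ARHGEF2* (r = 0.991), *CBLB* (0.990) and *RNF41* (0.990), and for *PMAIP1* they were *GRPEL2* (0.993), *INTS6* (0.992) and *MCL1* (0.992). For *MCL1* they were *SPAG9* (0.994), *FHL2* (0.994) and *ETS1* (0.994), and for *BIK* they were *RUSF1* (0.979), *GOLGA2P10* (0.977) and *RPS6KL1* (0.974). The *BIK* profile rests on 5 to 40 counts per library, and its 6 h call did not pass under some alternatives. *MCL1* was thus among the 3 closest genes to *PMAIP1* of 11884 compared. The 12 libraries share 4 group means, which set most of such a correlation, so these values are descriptions.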

How the data were processed

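The authors deposited unnormalized counts for each gene, made by trimming with fastp 0.20.1, alignment with STAR 2.7.5a to hg38 and counting with HTSeq 0.12.4 on RefSeq genes (tools per the labels). Strand and overlap settings are not given in the sources used here. Rows that name no gene (8.02 to 12.2% of entries per library) were left out. In R 4.3.3, edgeR 4.0.16 kept 15979 genes (filterByExpr), scaled by TMM and fitted 1 model of the 4 groups to all 12 libraries, with the quasi-likelihood test for NXP800 against DMSO at 6 h, at 24 h, and for the difference. Alternatives included DESeq2 1.42.0. The procedure was also tested on simulated data, and the outcome is not reported here. Replicates differed by more than sampling noise (chi-square of 7.95 to 28.6 per gene). Replicate numbers of the labels pair the libraries: same-numbered DMSO and NXP800 libraries deviated together across genes (r 0.160 to 0.329, at most 0.058 for different numbers). The main tests left this pairing out, and only the alternatives with the replicate block used it. The members, gene lists and tests were chosen with earlier results of these data known. Outside the 10 members and the other family genes, the called genes of a list were named, at most 3 each way per time by size, with *DDIT3*, *ATF4* and *JUN*, and some results are not reported here. For each member called the same way at both times the 3 genes with the most similar profile were named. Exon overlaps and lengths are from GENCODE v44.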

Additional observations from a re-analysis of the deposited data

Results flagged for a closer look

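For 7 of 20 tested genes of the family (35.0%, beside 25.8% of all tested genes) the response to NXP800 differed between 6 h and 24 h by a test of the difference itself (edgeR, adjusted over all tested genes). Expressed as the log2 fold change at 24 h minus that at 6 h, it was -0.81 for *BBC3*, -1.04 for *PMAIP1* and -0.49 for *MCL1*, whose rises were smaller at 24 h. It was 1.27 for *BMF*, which rose at 24 h and had 0.04 at 6 h, and 1.02 for *BCL2*, which fell at 6 h and had 0.14 at 24 h. It was -0.87 for *BAD* and -0.72 for *BCL2L12*, whose falls were larger at 24 h. The share of read pairs on no gene, 6.66 to 8.14% at 6 h and 2.73 to 3.67% at 24 h, moved with time as well, and its part in these differences was not tested. Groups of 3 libraries were not screened for outlying libraries.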

How the results depend on the processing

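The calls of *BBC3*, *PMAIP1* and *MCL1* at both times, of *BMF* and *BIK* at 24 h, of *BCL2* at 6 h, and of the differences of *BBC3*, *PMAIP1*, *MCL1*, *BMF* and *BCL2* kept their direction and stayed past the threshold under every alternative that gave a value: other scaling, other filters, DESeq2, the replicate block with and without offsets for GC content and length (the latter chosen after seeing the data), the 6 libraries of a time point, and each library left out in turn. *BIK* entered the test mainly through its treated libraries, so its 24 h call adds little to this list. With at least 10 counts in every library *BIK* was not tested, and the BH3-only median became 1.22 at 6 h and -0.43 for the difference. The replicate block added a lower call at 24 h (1 in place of 0, *BCL2L1*) and made *BAX* positive in the difference (adjusted p = 0.0423), as did library size alone (0.0242); it changed no other call of a member. Over all genes it raised calls of the difference from 4129 to 2945 positive and 3339 negative, and an adjusted p below 0.01 lowered them to 946 and 1290. The block with offsets gave 1 lower call at 6 h, 5 negative calls in the difference (with *BAK1*, -0.18, and *BCL2L1*, -0.20), and effector medians of 0.11 at 6 h and 0.092 at 24 h. It also called *BAK1* higher at 6 h (0.24, adjusted p = 0.000182) and *BAX* higher at 24 h (0.13, adjusted p = 0.0333). The anti-apoptotic median at 24 h was 0.22 under library size alone and 0.012 to 0.30 with a library left out, the extremes being without DMSO replicate 2 and without DMSO replicate 1. Signs turned only for values near 0: *BAX* at 24 h (0.074 under library size alone, 0.0017 without a filter, 0.0038 with 6 libraries, 0.13 with the offsets, -0.044 to 0.019 with a library left out), *BAK1* at 24 h (0.066 under library size alone, 0.058 with the offsets, -0.12 to 0.058 left out), the difference of *BCL2L11* (0.025 under library size alone, -0.13 to 0.063 left out), *BMF* at 6 h (-0.095 to 0.19 left out) and *BCL2L1* at 6 h (-0.10 to 0.085 left out). The causes were not tested. The ratio of BH3-only to anti-apoptotic transcript overlapped between groups at both times once *BID*, *BAD* and *HRK* were counted (chosen after seeing the data). The anti-apoptotic sum was not widened. Depth limits *BIK*, *HRK* and *BCL2L10*, whose DMSO libraries held at most 14 counts each.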

Other observations

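A list of 9 genes was drawn up as enzymes and partners of proteins of the family. Of these, 3 rose and 4 fell at 6 h, and 4 rose and 2 fell at 24 h (edgeR, adjusted over all tested genes). Over all tested genes 52.8% and 56.0% changed. *TRIB3*, a pseudokinase induced by ATF4 and CHOP, had the largest change of the list, with log2 fold changes of 4.18 (adjusted p = 5.71e-12) for 6 h and 3.73 (adjusted p = 1.21e-11) for 24 h. Whether the TRIB3 protein acts on proteins of the family was not tested. The deubiquitinase gene *USP9X*, whose product stabilizes MCL1, rose by 0.38 (adjusted p = 5.39e-05) and 0.18 (adjusted p = 0.0156). *HUWE1*, a ubiquitin ligase of MCL1, rose at 6 h by 0.23 (adjusted p = 0.00901), and its 24 h value was 0.07 (adjusted p = 0.407). *BTRC*, another ubiquitin ligase component, fell at 6 h by 0.23 (adjusted p = 0.00787) but was 0.43 higher at 24 h (adjusted p = 4.29e-05). The dynein light chain genes, whose proteins tether BIM and BMF, both fell at 6 h, *DYNLL1* by 0.70 (adjusted p = 8.77e-06) and *DYNLL2* by 0.31 (adjusted p = 0.00101). At 24 h *DYNLL1* fell by 0.24 (adjusted p = 0.0332), whereas *DYNLL2* rose by 0.37 (adjusted p = 0.000181).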
